A study of Mus musculus with 2 samples.

Results

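Cr2+Fcer2a+ cells were myocardial B cells in which transcripts of both CD21 and CD23 were counted, and they numbered 1339 of the 5688 Cd79a cells in the 2 libraries. A droplet was taken as such a cell when it held at least 2000 gene UMIs (unique molecular identifiers, each counting 1 captured RNA molecule), at most 10% of them from mitochondrial genes, at least 1 UMI each of Cd79a, Cr2 and Fcer2a, and a UMI of at most 2 of the 6 B1-associated genes Bhlhe41, Zbtb32, Ctla4, Cd9, S100a6 and Nid1. The neonatal library held 204 of them among 2077 Cd79a cells, and the adult library held 1135 among 3611. Because measured UMIs chose the cells, the values of these gate genes describe the choice and are not a result.

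Cr2 encodes CD21, a complement receptor that lowers the threshold for B cell receptor signaling, and Fcer2a encodes CD23, the low-affinity IgE receptor. In the spleen, both proteins are carried by mature follicular B cells, which recirculate through blood and lymphoid follicles, display IgD beside IgM on their surface and present antigen on MHC class II. Newly formed B cells carry little of either protein, marginal zone B cells carry much CD21 and little CD23, and B1 cells, a self-renewing lineage with natural antibodies, largely lack CD23. In the mm10 (GRCm38) genome used for the files, GENCODE M21 places Cr2 on the minus strand of chromosome 1 from 195136811 to 195176716, Fcer2a on the minus strand of chromosome 8 from 3681737 to 3694175, and Cd79a, a signaling chain of the B cell receptor, on the plus strand of chromosome 7 from 24897381 to 24902197.

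The study profiled B cells sorted by flow cytometry from digested hearts of wild-type C57BL6/J mice with the 10x Genomics 3′ v3 kit. The neonatal library came from 6 pooled mice aged 2 weeks (15 days in the title), males and females together, and the adult library from 6 pooled males aged 8 weeks. Neither group was treated, and the ages shared the digestion protocol and the day of the sort. The sort for B cells makes the libraries a sample of B cells and not of heart tissue, and the 5 cardiomyocyte markers summed to 1.22 and 2.18 CPM (UMIs per 1000000 UMIs) in the neonatal and adult Cr2+Fcer2a+ cells. With 1 pooled library per age there was no replicate, so no test was run, and age, pool of mice and library cannot be told apart. The pools also differed in sex.

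The neonatal library held 26866958 gene UMIs and the adult library 49500780 over all barcodes. Levels are given in CPM, with the UMIs of the 9 gate genes and of mitochondrial genes left out of the total. All intervals are exact 95% intervals that cover counting error only, and UMIs of 1 droplet are not independent samples of a mouse. Neonatal Cr2+Fcer2a+ cells had a median of 6819.5 UMIs and 2141 genes, against 5921 UMIs and 1964 genes in the other Cd79a cells. Adult Cr2+Fcer2a+ cells had a median of 7838 UMIs and 2189 genes, against 5223 UMIs and 1723.5 genes. The cells were therefore deeper than the rest in both libraries, most of all in the adult. Of the member barcodes, 7 of 204 neonatal and 5 of 1135 adult barcodes also held at least 500 UMIs in the other library, and 0 were members in both.

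Cr2+Fcer2a+ cells made up 9.82% of neonatal Cd79a cells (interval 8.58 to 11.2%) and 31.4% of adult Cd79a cells (29.9 to 33.0%). The share depended on depth. Among neonatal droplets it was 4.84% at 2000 to 4000 UMIs and 14.5% at 12000 to 16000 UMIs. Among adult droplets it was 15.5% at 2000 to 4000 UMIs, 46.7% at 6000 to 8000 UMIs and 33.1% above 16000 UMIs. In each of the 6 depth bins the adult share was above the neonatal one, with intervals that did not overlap. After every droplet had been thinned to 2000 UMIs, 42 of 2047 neonatal cells (2.05%, 1.48 to 2.76%) and 315 of 3577 adult cells (8.81%, 7.90 to 9.78%) met the gate. The adult share was the higher one at matched depth as well.

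**Figure D1:**
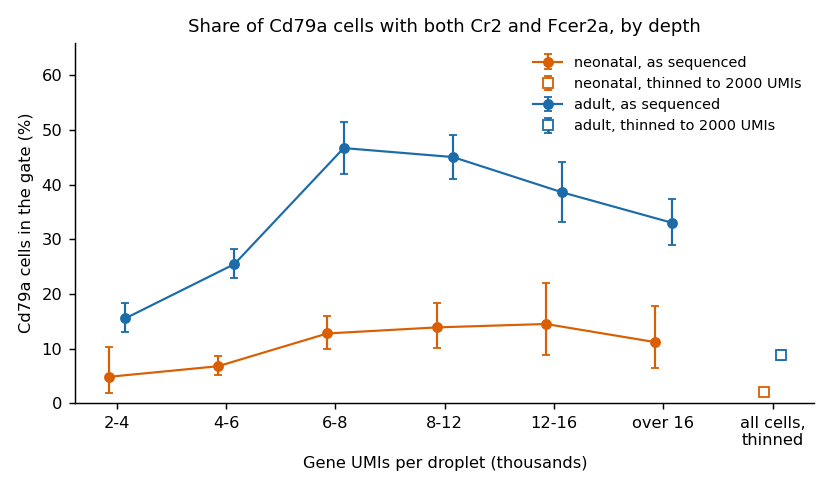
Percentage of Cd79a cells in the Cr2+Fcer2a+ gate (vertical axis) by bin of gene UMIs per droplet (horizontal axis) in the neonatal and adult libraries, with exact 95% counting intervals. Filled points are droplets as sequenced and open squares are all cells thinned to 2000 UMIs. The adult share lies above the neonatal share in every bin, reaching 46.7% at 6000 to 8000 UMIs, and remains above it after thinning, at 8.81% against 2.05%.

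Most neonatal cells entered the gate on few transcripts. The median Cr2 count was 1 UMI per neonatal cell and 2 per adult cell, and the median Fcer2a count was 3 in both. In 55 neonatal cells (27.0%) and 137 adult cells (12.1%) a single UMI of each gene was found, just inside the gate, whereas 34 neonatal cells (16.7%) and 511 adult cells (45.0%) held 2 or more of each. RNA free in the suspension, read from near-empty droplets, would give a Cr2 UMI in 0.160% of neonatal and 0.999% of adult droplets, and an Fcer2a UMI in 1.42% and 3.39%. A Cr2 UMI was seen in 16.5% of neonatal and 47.1% of adult Cd79a cells, and an Fcer2a UMI in 44.5% and 72.9%, all above those levels. Only 14 neonatal and 4 adult droplets of this depth lacked Cd79a, too few to serve as a cell type without the genes. At equal depth Cr2 was somewhat more frequent among cells with Fcer2a than among those without it, with intervals that overlapped. After thinning, Cr2 was detected in 8.24% (6.00 to 10.97%) of neonatal cells with Fcer2a and 5.49% (4.41 to 6.73%) of those without it, and in 20.5% (18.5 to 22.6%) and 17.9% (16.3 to 19.6%) of adult cells.

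The limit on B1-associated genes removed 19 of 223 neonatal and 237 of 1372 adult droplets that held Cd79a, Cr2 and Fcer2a. Just inside it, the 14 neonatal and 159 adult droplets with a UMI of 2 of the 6 genes held Ighd at 705 and 809.8 CPM. Just outside it, the 6 neonatal and 82 adult droplets with 3 of them held 467 and 767 CPM. In droplets with all 6 genes the Ighd level was 413 CPM in 4 neonatal droplets and 544 CPM in 32 adult ones, while in droplets with none it was 749 and 1091 CPM. Ahnak ran the other way, from 175 CPM at none to 975 CPM at all 6 in the neonatal library, and from 64.0 to 266 CPM in the adult. These droplets also differed in depth, from a median of 5508 UMIs at none to 46332 at all 6 in the adult library, so depth and the number of B1 genes cannot be told apart in these steps.

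The follicular label was checked on the 6 markers that the gate did not use. Of these, 203 of 204 neonatal and 1119 of 1135 adult cells held a UMI of at least 3, against 94.8% and 93.9% of the other, shallower cells. Summed over the list, the level was 4118 CPM (4021 to 4218) in neonatal Cr2+Fcer2a+ cells and 3593 CPM (3561 to 3625) in the other cells, and in the adult library 3967 CPM (3929 to 4005) against 3462 CPM (3437 to 3487). Cells with Fcer2a but no Cr2 transcript held as much or more of the list, at 4162 CPM in the neonatal and 4621 CPM (4566 to 4676) in the adult library. The list thus did not set Cr2+Fcer2a+ cells apart as more follicular than Fcer2a-only cells. Ighd, Ccr7, Cxcr5 and Zfp318 were higher than in the other cells in both libraries, and Klf2 was lower in both. A UMI of these abundant markers was thus found in most Cd79a cells of either kind, and the part of free RNA in these shares was not tested.

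Ighd encodes the heavy chain of IgD, the isotype displayed by mature naive B cells, and lies on the minus strand of chromosome 12 from 113406604 to 113416324. It was a marker given with the label, so its level is a description. In the neonatal library Ighd stood at 742 CPM in Cr2+Fcer2a+ cells and 484 CPM in the other Cd79a cells, a log2 ratio of 0.61 (0.52 to 0.70). In the adult library it stood at 979 and 667 CPM, a log2 ratio of 0.55 (0.52 to 0.59). These ratios were 0.39 and 0.11 when the B1-rich cells, with a UMI of 3 or more of the 6 B1 genes, were left out. The difference also varied with depth. At 2000 to 4000 UMIs Ighd stood at 480 against 530 CPM, over 6 neonatal Cr2+Fcer2a+ cells, and at 1141 against 1128 CPM in the adult library. The other cells were not uniform, and the Ighd level went with Fcer2a rather than with Cr2. Cells with Fcer2a but no Cr2 transcript held Ighd at 735 CPM in the neonatal and 1041 CPM in the adult library, near the Cr2+Fcer2a+ level. Cells with Cr2 but no Fcer2a held 443 and 668 CPM, and cells with neither held 443 and 715 CPM. The lowest level, 226 CPM in the neonatal and 470.3 CPM in the adult library, was in the B1-rich cells. The log2 ratio of Cr2+Fcer2a+ over Fcer2a-only cells was 0.012 (-0.084 to 0.11) in the neonatal and -0.089 (-0.13 to -0.043) in the adult library.

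Ighm, the IgM heavy chain gene next to Ighd on chromosome 12 (113418558 to 113422730, minus strand), ran opposite to it. It stood at 3687 CPM in neonatal Cr2+Fcer2a+ cells and 5000.3 CPM in the other cells, and at 2641 and 3920 CPM in the adult library. Of all Ighd and Ighm UMIs of the Cr2+Fcer2a+ cells, Ighd took 16.7% (15.9 to 17.6%) in the neonatal and 27.0% (26.6 to 27.5%) in the adult library. In the other cells it took 8.83% (8.63 to 9.04%) and 14.5% (14.3 to 14.8%). Fcer2a-only cells again lay beside the Cr2+Fcer2a+ cells, at 16.5% and 28.6%, whereas Cr2-only cells were at 8.93% and 19.1%. Single cells varied widely around these sums. Among cells with at least 10 such UMIs, the interquartile range of the Cr2+Fcer2a+ cells lay between 8.70 and 25.6% in the neonatal and between 20 and 37.2% in the adult library. That of the other cells lay between 2.70 and 18.7% and between 7.67 and 33.3%. The medians were 17.1% against 7.82% in the neonatal and 27.8% against 20% in the adult library, so the adult gap was smaller per cell than in the sums. Adult cells with neither transcript held Ighm at 7937 CPM together with Jchain at 1420.4 CPM and Ighg2c at 1372 CPM, genes of antibody-secreting cells, and the part of such cells in the adult Ighm difference was not tested.

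**Figure D2:**
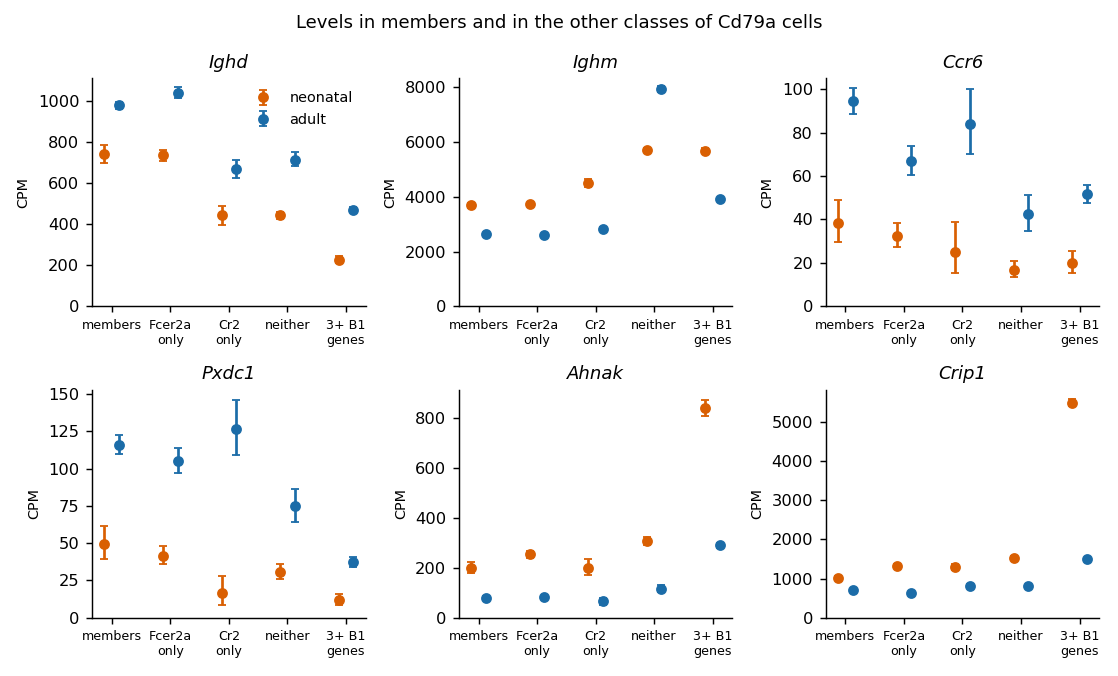
Levels in CPM (vertical axes, starting at 0) of 6 genes in Cr2+Fcer2a+ cells (members), cells with Fcer2a only, Cr2 only or neither, and cells with a UMI of 3 or more of the 6 B1 genes (horizontal axes), in the neonatal and adult libraries, with exact Poisson 95% intervals. Ighd is alike in members and Fcer2a-only cells, the Ccr6 level in members has an interval that overlaps those of the nearest classes in the neonatal library, and Ahnak and Crip1 stand apart in the cells with 3 or more B1 genes.

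Across all genes, Cr2+Fcer2a+ cells differed little from the other Cd79a cells of their library. Of 2749 genes with a mean of at least 50 CPM over the 4 sums compared, 4 were at least 1.5-fold higher in both libraries (0.146%) and 12 were at least 1.5-fold lower in both (0.437%). In the neonatal library alone 29 genes were higher (1.05%) and 35 lower (1.27%) by that fold, and in the adult library 8 were higher (0.291%) and 25 lower (0.909%). The 4 higher genes were Pxdc1, Ccr6, Lrrk2 and Rasgrp3, and the 12 lower ones were Lmna, Ahnak, Lgals1, Socs3, Pdlim1, Rassf4, Itgb1, Crip1, Vim, Atf3, Odc1 and Jchain. Most of these calls depended on the B1-rich cells. Once those were left out of the comparison, 1 gene was higher, Egr1 (0.0364%), and 1 was lower, Jchain (0.0364%). Thus 0 of the 4 and 1 of the 12 still passed the limit, a log2 ratio of 0.585, in both libraries. The ratios of the 4 higher genes were then 0.43 to 0.67 in the neonatal and 0.20 to 0.57 in the adult library. Over cells with neither transcript all 4 passed the limit in both libraries, at 0.64 to 1.198 and 0.60 to 1.159. Of the 12 lower genes, 1 passed it there, Jchain. A single droplet held 55.8% of all neonatal and 25.8% of all adult Jchain UMIs. With the other cells weighted to the same depth, 10 genes were higher (0.364%) and 16 lower (0.582%). With every cell given equal weight, 0 genes were higher and 1, Ahnak, was lower, without possible doublets 0 were higher and 2, Ahnak and Myadm, were lower, and without the barcodes shared between the libraries 2 were higher and 9 lower.

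Ccr6, the receptor for the chemokine CCL20, was among the higher genes and is encoded on the plus strand of chromosome 17 from 8236043 to 8257141. It stood at 38.4 CPM in neonatal Cr2+Fcer2a+ cells (63 UMIs) and 23.1 CPM in the other cells, and at 94.5 and 57.1 CPM in the adult library. The log2 ratio was 0.73 in both libraries (0.32 to 1.12 neonatal, 0.61 to 0.85 adult). Ccr6 kept much of this difference without the B1-rich cells, at 0.67 and 0.57, and stood farther from the cells with neither transcript, at 1.198 and 1.159. Over Fcer2a-only cells the ratio was 0.24 (-0.22 to 0.68) in the neonatal and 0.50 (0.33 to 0.67) in the adult library, and over Cr2-only cells it was 0.62 (-0.13 to 1.42) and 0.17 (-0.10 to 0.45). A difference from these classes was therefore not detectable at this depth, except over adult Fcer2a-only cells.

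Pxdc1, whose product is little studied, had log2 ratios of 0.79 (0.42 to 1.13) and 0.81 (0.70 to 0.92), from 49.3 against 28.6 CPM in the neonatal and 116 against 66.2 CPM in the adult library. Cr2-only cells held it at 16.3 CPM in the neonatal library but 126 CPM in the adult, so its place among the classes differed between the libraries. Rasgrp3, a Ras activator downstream of the B cell receptor, stood at 68.8 against 39.3 CPM in the neonatal and 117 against 73.8 CPM in the adult library. Lrrk2, a kinase of B cells and phagocytes, stood at 107 against 66.1 CPM and 113 against 71.7 CPM. Without the B1-rich cells the log2 ratios of Pxdc1 became 0.53 and 0.20, those of Rasgrp3 0.55 and 0.37, and those of Lrrk2 0.43 and 0.27.

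The other genes named among the 12 highest had ratios between 0.47 and 0.83 in both libraries. Satb1, a chromatin organizer of lymphocytes, stood at 558 CPM in neonatal Cr2+Fcer2a+ cells against 339.6 CPM, and at 502 against 345 CPM in the adult library. Neurl3, a ubiquitin ligase, stood at 175 against 98.3 CPM and at 246 against 168 CPM. Adult differences of these genes were small beside cells other than the B1-rich ones: there the log2 ratio was 0.48 in the neonatal but 0.10 in the adult library for Satb1, and 0.55 but -0.040 for Neurl3. Sesn1, an inhibitor of mTORC1 signaling, followed the same course, with 0.72 and 0.54 over all other cells and 0.52 and 0.11 without the B1-rich ones. Treml2, Rasgef1b, Pag1 and Pxk completed the group. Their log2 ratios were 0.50 and 0.60 for Treml2, 0.50 and 0.55 for Rasgef1b, 0.60 and 0.49 for Pag1, and 0.47 and 0.55 for Pxk. Without the B1-rich cells they were 0.23 and 0.16, 0.31 and 0.25, 0.43 and 0.29, and 0.21 and 0.24 in the same order. Pag1 encodes a membrane adaptor that recruits the kinase Csk.

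On the lower side, Lmna, Ahnak and Lgals1 ranked first. Lmna, which encodes the nuclear lamins A and C, stood at 38.4 CPM in neonatal Cr2+Fcer2a+ cells and 147 CPM in the other cells, and at 19.9 and 57.9 CPM in the adult library, for log2 ratios of -1.93 (-2.32 to -1.57) and -1.54 (-1.76 to -1.33). Its level in B1-rich cells was 440.5 CPM in the neonatal and 90.2 CPM in the adult library, whereas Fcer2a-only cells held 61.2 and 17.1 CPM. The same shape was seen for Ahnak, a scaffold protein gene, at 202 against 414 CPM and 80.1 against 199 CPM, with 842 and 291 CPM in B1-rich cells. Itgb1, the integrin beta 1 chain, stood at 38.4 against 65.7 CPM in the neonatal and 39.6 against 125 CPM in the adult library. Vim, the intermediate filament gene vimentin, stood at 763 against 1383 CPM and 496 against 800.4 CPM, and Crip1, a LIM domain protein gene, at 1006 against 2414 CPM and 695 against 1143 CPM. Lgals1, which encodes galectin-1, stood at 39.6 against 154 CPM and 76.3 against 150.4 CPM.

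Without the B1-rich cells these genes were nearer to the rest in the adult library, where the log2 ratio was 0.077 for Lmna, -0.13 for Ahnak, 0.41 for Lgals1, -0.022 for Vim and -0.019 for Crip1. In the neonatal library part of each difference remained, at -0.45 for Lmna, -0.46 for Ahnak, -0.58 for Lgals1, -0.39 for Vim and -0.50 for Crip1. Itgb1 was the opposite, at 0.010 in neonatal and -0.33 in adult cells. The limit on B1 genes took these cells out of the Cr2+Fcer2a+ gate, so low levels of genes that accompany the 6 B1 genes follow in part from the rule itself. Socs3, a feedback inhibitor of cytokine signaling, was at -0.65 and -0.31 without the B1-rich cells, and Pdlim1, an actin-associated gene, at -0.96 and -0.16. Rassf4, Atf3, Odc1 and Plac8 were the remaining named genes, with log2 ratios over all other cells from -0.57 to -0.84 in the neonatal and from -0.88 to -1.61 in the adult library. Without the B1-rich cells 3 of these turned in 1 library, adult Rassf4 at 0.039, neonatal Atf3 at 0.049 and neonatal Odc1 at 0.081. Atf3 is a stress-induced transcription factor gene, and Odc1 encodes the first enzyme of polyamine synthesis.

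**Figure D3:**
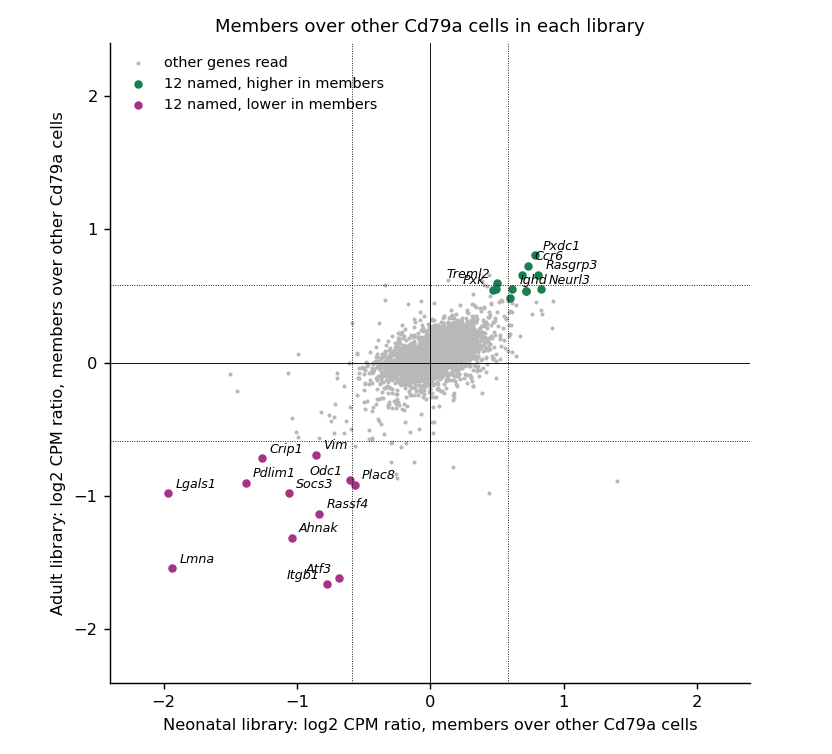
Log2 CPM ratio of Cr2+Fcer2a+ cells (members) over all other Cd79a cells in the neonatal library (horizontal axis) and the adult library (vertical axis) for the genes read, with the 12 named genes on each side colored and dotted lines at 1.5-fold. Most genes lie near 0, the higher named genes reach 0.83, and the lower ones reach -1.96. Jchain lies outside the axes.

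Few genes set the Cr2+Fcer2a+ cells apart from Fcer2a-only cells. Against them, 0 of the 2749 genes were 1.5-fold higher in both libraries (0%) and 0 were lower (0%), with 4 higher (0.146%) and 3 lower (0.109%) in the neonatal and 6 higher (0.218%) and 2 lower (0.0728%) in the adult library alone. Against Cr2-only cells, 94 genes were higher (3.42%) and 46 lower (1.67%) in the neonatal library, and 26 higher (0.946%) and 11 lower (0.4%) in the adult. Of these, 5 genes were higher in both (0.182%), namely Egr1, Egr3, Sfn, Ubn2 and Lyz2, and 2 were lower (0.0728%), Jchain and Hist1h2ae, all named after their values were seen. The Cr2-only class held 114 neonatal and 237 adult cells, fewer than the 666 and 1166 Fcer2a-only cells, so its counts carry more counting error. Lyz2 was at 0 UMIs in it in both libraries, and 90.9% of the 44 Lyz2 UMIs of adult Cr2+Fcer2a+ cells were in 1 droplet. The neonatal intervals of both lower genes spanned 0, from -7.92 to 2.22 for Jchain, with 1 against 2 UMIs, and from -1.34 to 0.11 for Hist1h2ae. Egr1, an immediate-early gene induced by B cell receptor signaling and also by cell handling, was higher than in both classes in both libraries. It stood at 166 CPM in neonatal and 105 CPM in adult Cr2+Fcer2a+ cells, at 114 and 47.8 CPM in Fcer2a-only cells, and at 40.03 and 51.8 CPM in Cr2-only cells. The log2 ratio over Fcer2a-only cells was 0.54 (0.32 to 0.76) in the neonatal and 1.13 (0.94 to 1.33) in the adult library, and over Cr2-only cells 2.05 (1.52 to 2.63) and 1.02 (0.69 to 1.37). B1-rich cells held more of it than Cr2+Fcer2a+ cells, at 306 CPM in the neonatal and 114 CPM in the adult library. Against all other cells together its log2 ratio was 0.19 and 0.27, and without the B1-rich cells 0.83 and 0.94.

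The cells did not form a separate group on genes outside the gate. In a space of 30 principal components computed on cells thinned to 2000 UMIs, 9.77% of the 15 nearest neighbors of a neonatal Cr2+Fcer2a+ cell were of the same kind, where such cells made up 9.82% of the library. In the adult library the neighbors were of the same kind in 35.5%, against 31.4% of all cells. Fcer2a-only cells gave 40.8% of the neighbors in the neonatal library, where they were 32.1% of cells, and 37.2% in the adult, where they were 32.3%. Cr2-only cells gave 6.21% of the neighbors against 5.49% of neonatal cells, and 8.09% against 6.56% of adult cells. B1-rich cells were scarce among the neighbors, at 2.39% against 8.52% of neonatal and 6.30% against 16.1% of adult cells.

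Gene lists were compared by the median log2 ratio of their genes, which was 0.02 in neonatal and 0.05 in adult cells over all 2749 genes. Of these, 1240 were above 0 and 655 below 0 in both libraries. The MHC class II pathway, which loads and displays peptides to CD4 T cells, was above 0 for 11 of 11 genes in both libraries, with medians of 0.31 and 0.18, and 0 of them reached 1.5-fold. Summed over the list, Fcer2a-only cells held no less, at 23160.3 CPM against 22822 CPM in neonatal Cr2+Fcer2a+ cells, with intervals that overlapped, and 31097 CPM against 30674 CPM in adult ones. H2-Ab1, a class II beta chain, stood at 2935 against 2299.7 CPM in the neonatal and 4039.6 against 3542 CPM in the adult library, and the class II transactivator Ciita at 91.9 against 62.2 CPM and 153 against 122 CPM. MHC class I genes had medians of 0.02 and 0.03 over 8 genes, with 5 above 0 in neonatal and 8 in adult cells. The class II medians were 0.24 and 0.025 without the B1-rich cells.

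The 6 follicular markers outside the gate, with Ighd among them, had medians of 0.35 and 0.29, with 5 of 6 above 0 in both libraries. Ccr7, which guides cells into T cell zones, stood at 1441 against 1166 CPM in the neonatal and 582 against 471 CPM in the adult library. Cxcr5, which guides cells into follicles, was at 259 against 229 CPM and 149 against 141 CPM, and Zfp318, which is needed for IgD transcripts, at 129 against 97.6 CPM and 186 against 125 CPM. Klf2, a regulator of B cell trafficking, was the exception, at 1202 against 1387 CPM and 1748 against 1792 CPM. Without the B1-rich cells the medians were 0.18 and 0.046, and without possible doublets they were 0.17 and -0.060, so the adult direction depended on those droplets. The 2 settings overlap. Of the 258 neonatal and 769 adult droplets over 2 times the library's median UMIs, 136 and 430 were B1-rich. The separate part of doublets was not tested. As a mean over cells the medians were 0.17 and 0.033.

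Regulators of quiescence and maturation had medians of 0.21 and 0.27 over 11 genes, 8 of them above 0 in both libraries. Mef2c, a transcription factor for B cell survival and proliferation, stood at 1098 against 831 CPM in the neonatal and 1264 against 953 CPM in the adult library, and Ets1, which restrains plasma cell differentiation, at 1003 against 800.1 CPM and 637 against 512 CPM. These medians were 0.067 and -0.011 without the B1-rich cells, -0.031 and -0.0046 without possible doublets, and -0.044 and 0.053 as a mean over cells, so their direction depended on these choices. Of 11 homing and egress receptors, 7 were above 0 and 2, the integrin chains Itgb1 and Itgb7, were below 0 in both libraries, with list medians of 0.31 and 0.08, and 0.18 and -0.021 without the B1-rich cells. Gpr183, which positions activated B cells at the outer follicle, stood at 325 against 232 CPM and 324 against 257 CPM.

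B cell receptor signaling genes had medians of 0.07 and 0.06 over 13 genes, and B lineage transcription factors 0.12 and 0.09 over 10. Inhibitory and Fc receptor genes had medians of 0.06 and 0.14 over 9. Of these, Fcrl1, an Fc receptor-like inhibitor, stood at 117 against 80.4 CPM and 119 against 86.2 CPM, and Cd22, a dampener of B cell receptor signaling, at 174 against 131 CPM and 208 against 178 CPM. The transitional genes had a median of -0.28 with 0 of 4 above 0 in the neonatal library and -0.015 with 2 of 4 above 0 in the adult. Vpreb3, which marks newly formed B cells, stood at 335 CPM in neonatal Cr2+Fcer2a+ cells and 423 CPM in the other cells, but at 246 against 164 CPM in the adult library. Neonatal cells with neither transcript held most of it, at 685 CPM, while the adult difference lay with the B1-rich cells, at 91.1 CPM, and was -0.04 without them. The marginal zone list had 2 of 10 genes above the expression limit. Notch2 stood at 86.5 against 56.9 CPM and 65.5 against 53.9 CPM, Mzb1 was lower at 444 against 567 CPM and 447 against 648 CPM, and Cd1d1, S1pr3 and Dtx1 stayed below 50 CPM in every class.

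**Figure D4:**
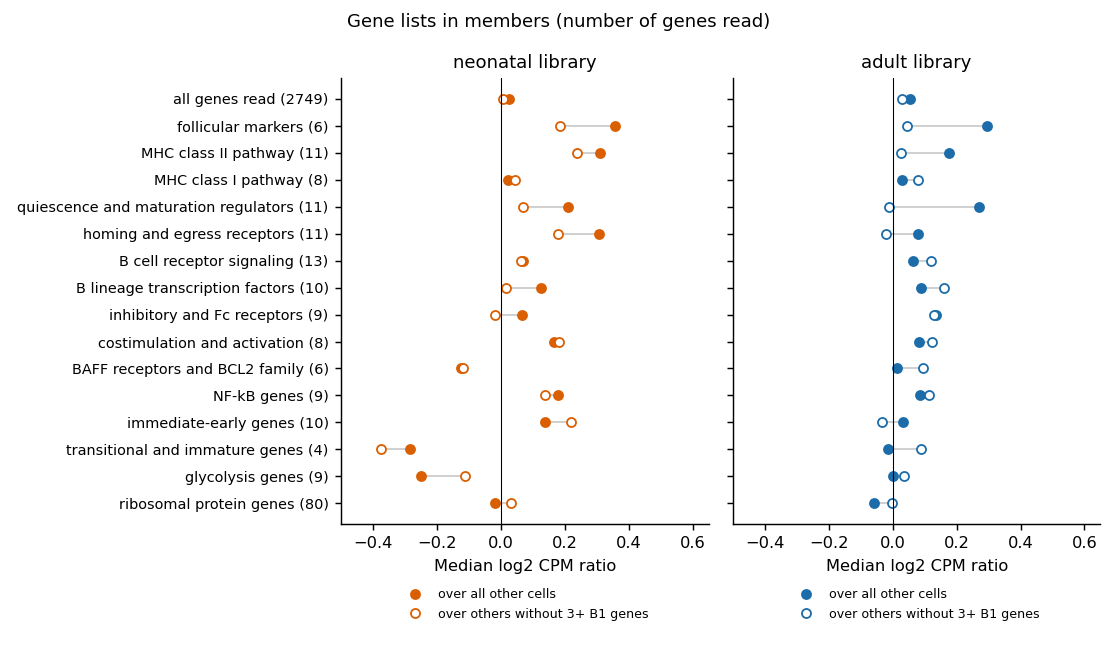
Median log2 CPM ratio of each gene list (horizontal axis) in the neonatal and adult libraries, with the number of genes read in brackets. Filled points compare Cr2+Fcer2a+ cells with all other Cd79a cells and open points leave out cells with 3 or more B1 genes. Follicular, MHC class II and quiescence lists lie to the right of the median of all genes for the filled points and move toward 0 for the open points, most of all in the adult library.

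The study's own list of 20 genes for CD21+CD23+ cells, picked from these libraries and therefore not independent evidence, had 18 genes outside the gate. All 18 were above 0 in both libraries, with medians of 0.57 and 0.37, and 9 in neonatal and 1 in adult cells were 1.5-fold higher, where 1.05% and 0.291% of all genes were. Without the B1-rich cells the medians were 0.42 and 0.023, with 18 and 10 of the 18 above 0. The list for CD21-CD23- cells, picked in the same way, had 18 of 20 genes below 0 in both libraries, with medians of -0.29 and -0.18, and -0.34 and -0.098 without the B1-rich cells.

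Summed markers of T cells and plasma cells were lower in Cr2+Fcer2a+ cells than in the other Cd79a cells. The 7 T cell markers summed to 2 UMIs in the neonatal cells (1.22 CPM against 12.9 CPM in the other cells) and 27 UMIs in the adult cells (2.55 against 20.99 CPM), with Cd3e, Cd8a and Cd4 at 0 in both. Plasma cell markers summed to 45.1 against 172 CPM and 57.8 against 259 CPM, led by Xbp1 at 31.1 and 45.3 CPM in Cr2+Fcer2a+ cells, with Tnfrsf17 at 0 in both libraries. The sum in the other cells was mostly Jchain, at 103 and 183 CPM, and 55.8% of the neonatal Jchain UMIs were in 1 droplet. The 5 endothelial markers were higher, at 182 (162 to 204) against 148 CPM (141 to 154) and 143 (136 to 150) against 119 CPM (114 to 124). Almost all of it came from Pecam1, which B cells also express, and Kdr was at 0 in the Cr2+Fcer2a+ cells of both libraries. The 12 B1 genes outside the gate summed to 160.1 against 514 CPM and 233 against 632 CPM, which follows in part from the limit on B1 genes. In the neonatal library Fcer2a-only cells held 149 CPM (138 to 161), overlapping the interval of Cr2+Fcer2a+ cells (141 to 181). In the adult library they held less than the 233 CPM of Cr2+Fcer2a+ cells, at 149 CPM (139 to 159). The macrophage list was higher in the neonatal library, at 194 CPM in neonatal Cr2+Fcer2a+ cells against 88.4 CPM in the other cells, with Lyz2 at 166 CPM and C1qa, C1qb, C1qc and Fcgr1 at 0. A UMI of 2 or more macrophage markers was found in 3 of 204 neonatal Cr2+Fcer2a+ cells. A single droplet held 45.1% of the Lyz2 UMIs of these 204 cells, where the largest share over all neonatal Cd79a cells was 14.9%. In the adult library the list summed to 14.5 against 20.4 CPM. The part of doublets with macrophages was not tested.

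The 2 libraries were then compared within the Cr2+Fcer2a+ cells, with the same ratio in the other Cd79a cells beside it. Of 2749 genes, 91 were at least 1.5-fold higher in adult cells (3.31%) and 268 were at least 1.5-fold lower (9.75%), where the other cells gave 71 (2.58%) and 220 (8%). The median log2 ratio of all genes was -0.14, and after scaling to that median the counts were 165 higher and 144 lower, so the excess of lower genes depended on the scaling. The 20 named genes differed in the same direction in both kinds of cell. These genes were chosen by their ratio in Cr2+Fcer2a+ cells, which favors larger values there. Whether the sizes differ between the 2 kinds of cell was not tested.

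Traf1, an adaptor of TNF receptor signaling induced by NF-kB, had the largest ratio, from 13.4 CPM in neonatal to 112 CPM in adult Cr2+Fcer2a+ cells, a log2 ratio of 3.06 (2.46 to 3.74) against 2.07 in the other cells. Ly6a, the surface antigen Sca-1, stood at 71.2 and 533 CPM, a log2 ratio of 2.90 (2.64 to 3.18) against 2.28. Nonclassical MHC class I genes followed, with H2-Q7 at 2.62, H2-Q6 at 1.86 and H2-T22 at 1.39. These genes have near-identical copies among which counting may split reads, so their single values are uncertain. The histone genes Hist1h2ap and Hist1h1e had log2 ratios of 2.22 and 1.59, against 0.97 and 1.18 in the other cells. Pxdc1, Man1a and Gm10076 completed the 10 genes higher in adult cells, at 1.23, 1.17 and 1.12. Xist, which is transcribed from an inactive X chromosome, was detected in 60 of the 204 neonatal and 1 of the 1135 adult Cr2+Fcer2a+ cells.

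On the neonatal side, Rilpl2, linked to ciliary protein transport, stood at 372 CPM in neonatal and 66.4 CPM in adult Cr2+Fcer2a+ cells, a log2 ratio of -2.49 (-2.64 to -2.33) against -1.87 in the other cells. Myadm, a membrane protein gene, stood at 164 and 37.3 CPM, a log2 ratio of -2.14, and Rasd1, a Ras-related gene, at 115 and 31.4 CPM, a ratio of -1.87. Irf4, a transcription factor whose level follows B cell receptor signaling, stood at 233 and 80.01 CPM, a ratio of -1.54 (-1.72 to -1.37), and was as different in the other cells, at -1.55. Atf3 had -1.72 (-1.95 to -1.50) in Cr2+Fcer2a+ cells and -0.80 in the others. Egr3, an immediate-early gene, had -1.31 against -0.85. Klf3, Gm26532, Pik3ip1 and Ahnak completed the group, at -1.47, -1.35, -1.33 and -1.33. With only the 119 neonatal cells that held a Y-linked UMI and no Xist UMI, the 20 named ratios kept their direction, at 2.80 for Traf1 and -2.49 for Rilpl2. With adult cells weighted to the neonatal depth they were 3.05 and -2.63.

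**Figure D5:**
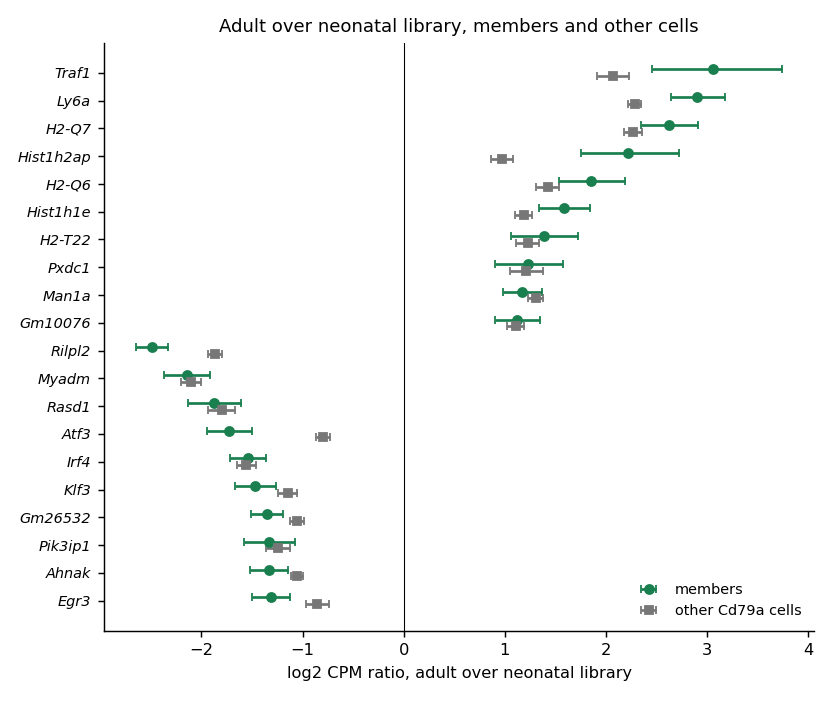
Log2 CPM ratio of the adult over the neonatal library (horizontal axis) for the 20 genes named by size, in Cr2+Fcer2a+ cells (members, circles) and in the other Cd79a cells (squares), with exact 95% counting intervals. All 20 pairs share their direction. The genes were chosen by their ratio in members, which favors larger values there, and a difference in size was not tested.

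Lists showed the age difference in the same way. MHC class II genes had a median log2 ratio, adult over neonatal, of 0.49 in Cr2+Fcer2a+ cells and 0.62 in the others, and MHC class I genes had 0.54 and 0.42. Homing receptors had a median of -0.68 in Cr2+Fcer2a+ cells, with 3 of 11 above 0, and -0.50 in the others, with 5 of 11 above 0. Of all 2749 genes, 977 and 785 were above 0, with medians of -0.14 and -0.16, so 3 of 11 was near the share over all genes. Other lists were lower in adult cells of both kinds as well. Their medians in Cr2+Fcer2a+ cells were -0.49 for quiescence genes (3 of 11 above 0), -0.40 for B cell receptor signaling (1 of 13) and -0.39 for immediate-early genes (0 of 10). In the other cells they were -0.53, -0.46 and -0.32 in the same order. Ccr7 stood at 1441 CPM in neonatal and 582 CPM in adult Cr2+Fcer2a+ cells, and S1pr1, which draws cells out of lymphoid tissue, at 384 and 199 CPM. Ccr6 was higher in adult Cr2+Fcer2a+ cells, at 38.4 and 94.5 CPM, with a log2 ratio of 1.30 there and in the other cells.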

How the data were processed

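The authors digested the hearts, sorted live B cells, prepared 1 10x Genomics 3′ v3 library per age and deposited unfiltered UMI counts for 31053 mm10 genes and 6794880 barcodes per library. The file header names Cell Ranger 3.0.2. Counts were used as deposited. Antibody tags were nearly empty, at 0 to 2 UMIs each over all droplets, and were not used.

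Droplets were gated on UMIs as described. The cells and gene lists were chosen with earlier results of these data known. UMIs were summed over cells, and log2 CPM ratios were given exact conditional binomial intervals, sums exact Poisson and shares Clopper-Pearson intervals, all at 95%. The ratio script was tested on simulated data. With 1 library per age no model could be fitted. Genes were read at a mean of at least 50 CPM over 4 sums (Cr2+Fcer2a+ and other cells of each library), and 1.5-fold is a description. Named genes were the 12 with the largest ratio of the same sign in both libraries on each side, by the smaller of the 2, without gate, mitochondrial, variable-region, hemoglobin and sex-linked genes and genes with most UMIs in 1 droplet. For age, they were the 10 largest on each side with 100 CPM in either library. List members serve as examples. Near-empty droplets of rank 45000 to 90000 gave the level of free RNA. Possible doublets (over 2 times the library's median UMIs, or a UMI of 2 or more T cell or macrophage markers) were kept, and leaving them out was 1 of the alternatives. Annotation was GENCODE M21 (30934 gene identifiers matched). Intervals came from scipy 1.17.1, neighbors from scikit-learn 1.9.0 and figures from matplotlib 3.10.9, run under Python 3.11.15 with pandas 2.3.3 for tables and numpy 2.4.6 for sums. Some items are not reported here.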

Additional observations from a re-analysis of the deposited data

Results flagged for a closer look

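Lyz2, the lysozyme gene of macrophages and neutrophils, went in opposite directions in the libraries. Its log2 ratio of Cr2+Fcer2a+ over other Cd79a cells was 1.40 in the neonatal library, from 166 against 63.0 CPM, and -0.89 in the adult library, from 4.16 against 7.71 CPM. The difference between the libraries was not tested. In neonatal Cr2+Fcer2a+ cells 45.1% of the Lyz2 UMIs were in 1 droplet, and in adult ones 90.9% of 44. Of all adult Lyz2 UMIs, 71.9% were in 1 droplet, so the adult ratio rests on single droplets.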

How the results depend on the processing

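Of 999 values of named genes under alternatives, 984 kept their sign and 15 reversed. The limits of 20 and 200 CPM alter only which genes are read. Named values counted under these 2 limits therefore could not change. Of 168 alternatives for shares, counts, list medians and neighbors, 97 stayed near the reported value and 71 moved. The causes were not tested. Follicular medians were above 0 in 29 of 30, MHC class II in 30 of 30 and quiescence in 26 of 30. At 20 CPM the follicular and MHC class II lists held the same genes, so those medians could not change. The medians of all genes read were also above 0, at 0.02 neonatal and 0.05 adult. Without B1-rich cells the adult median of all genes was 0.030, above that of MHC class II. The share of Cd79a cells in the gate was 6.79% neonatal and 15.6% adult with a UMI of none of the B1 genes, 1.64% and 14.2% with 2 or more UMIs of each gate gene, and 2.05% and 8.81% after thinning. The adult share was 35.4% with at least 4000 UMIs and 35.2% with at most 7% mitochondrial UMIs. Genes past 1.5-fold in both libraries numbered 8 higher with at least 4000 UMIs and 21 lower with at most 7% mitochondrial UMIs. They numbered 7 higher and 25 lower with no B1 gene, and 8 and 5 after thinning. Those with no B1 gene held 0 of the 4 higher and 12 of the 12 lower genes reported above. After thinning only Ccr6 of the 4 and Ahnak of the 12 were held. Genes past the fold numbered 2 higher without shared barcodes, 0 and 2 without possible doublets, and 0 and 1 as a mean over cells. At a mean of 20 CPM they numbered 7 and 28, and at 200 CPM 0 and 3. They numbered 10 higher at matched depth, 1 and 1 without B1-rich cells, and 6 and 6 against cells with neither transcript. Between the ages they numbered 159 higher and 419 lower with at most 7% mitochondrial UMIs, 144 and 419 with 2 or more UMIs, and 387 and 575 after thinning. These settings left 68, 34 and 42 neonatal cells in place of 204, so their counts carry more counting error. The age counts were 165 and 144 with median-of-ratios scaling, 240.0 and 618 at 20 CPM, and 16 and 57 at 200 CPM. Follicular medians, neonatal then adult, were 0.11 and 0.063 after thinning, 0.17 and -0.060 without possible doublets, 0.17 and 0.033 as a mean over cells, and 0.18 and 0.046 without B1-rich cells. The neonatal one was 0.14 with 2 or more UMIs, and the adult one 0.36 with at least 4000 UMIs, 0.43 with no B1 gene, 0.39 at matched depth and 0.22 against neither. MHC class II medians were 0.19 and 0.13 with 2 or more UMIs and 0.50 and 0.14 against neither, and the adult one 0.12 after thinning, 0.099 without possible doublets, 0.11 as a mean over cells, 0.12 with median-of-ratios scaling and 0.025 without B1-rich cells. Quiescence medians were -0.031 and -0.0046 without possible doublets, -0.044 and 0.053 as a mean over cells, and 0.046 and 0.088 against neither, and the adult one 0.35 with no B1 gene, 0.069 after thinning and -0.011 without B1-rich cells. Neonatal neighbors were 12.3% with 10 components. Thinning left 42 neonatal and 315 adult cells in the gate at 2000 UMIs each, so values of single genes there rest on few UMIs. Reversed log2 ratios after thinning were adult Lrrk2 -0.034 and Treml2 -0.24 and neonatal Sesn1 -0.18, Rassf4 0.068, Atf3 0.057 and Odc1 0.13. Without B1-rich cells they were adult Neurl3 -0.040, Lmna 0.077, Lgals1 0.41 and Rassf4 0.039 and neonatal Itgb1 0.010, Atf3 0.049 and Odc1 0.081. Against neither, adult Lgals1 was 0.0091, and without possible doublets neonatal Itgb1 was 0.17. No paired analysis was possible because each age had 1 library. Low genes of the 204 neonatal cells had wide counting intervals.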

Other observations

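Glycolysis genes were slightly lower in neonatal Cr2+Fcer2a+ cells than in the other Cd79a cells, with a median log2 ratio of -0.25 and 1 of 9 genes above 0, where 1515 of all 2749 genes were. In the adult library the median was -0.00049, with 4 of 9 above 0, where 1819 of all 2749 genes were. Leaving out the B1-rich cells gave -0.11 and 0.036. Gapdh stood at 461.5 against 554 CPM in the neonatal and 507 against 527 CPM in the adult library. Of the survival genes, Bcl2, which blocks apoptosis, stood at 113 against 72.1 CPM in the neonatal and 171 against 165 CPM in the adult library. Tnfrsf13c, the receptor for the survival factor BAFF, stood at 100.5 against 131 CPM and 143 against 116 CPM, opposite ways in the libraries.

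Immediate-early genes had medians of 0.14 and 0.03 over 10 genes, and 0.22 and -0.034 without the B1-rich cells, so the adult direction turned. Nr4a1, a gene induced by B cell receptor signaling, stood at 680.1 against 529.6 CPM and 512 against 479 CPM, and Cd69, an early activation marker, at 479 against 411 CPM and 369.9 against 311 CPM. The Ighd difference was wider among deep droplets. B1-rich cells, which held little Ighd, were the deepest class, with medians of 15881 neonatal and 16550.0 adult UMIs. The part of B1-rich cells in the wider difference was not tested. Above 16000 UMIs Ighd stood at 654 against 259 CPM in the neonatal and 987 against 540.4 CPM in the adult library, whereas at 2000 to 4000 UMIs it stood at 479.8 against 529.7 CPM, over 6 neonatal Cr2+Fcer2a+ cells, and 1141 against 1128 CPM. Heavy chain variable genes gave 92 UMIs over 43 genes in neonatal and 811 UMIs over 91 genes in adult Cr2+Fcer2a+ cells, with Ighv1-26 at 10.9% and Ighv3-6 at 5.06% as the most frequent. An Xist UMI without a Y-linked UMI was found in 21.1% of neonatal Cr2+Fcer2a+ cells and 14.9% of the other neonatal Cd79a cells.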
